A study of Mus musculus with 11 samples.

Results

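The interferon-stimulated genes examined here are a list of 37 genes that encode antiviral effectors, sensors of foreign nucleic acid and regulators of the interferon response. A gene was taken as measured when the platform annotation held at least 1 probe set that named it and no other gene, and its value was the median of those probe sets. Of the 37 genes, 35 were measured, by 61 probe sets, among 18193 genes on the array. Isg15 has 1 probe set, which also names Gm9706, and Isg15 and Ifi44 were not analysed here. The study compared splenic B cells of NOD mice (NOD/ShiLtJ), which develop autoimmune diabetes spontaneously, with those of NR4 mice (NOD.NOR-Chr4/DvsJ), NOD mice that carry part of chromosome 4 from the NOR strain. The 11 Affymetrix whole-genome arrays held RNA of 2 NOD anti-IgM, 3 NOD unstimulated, 3 NR4 anti-IgM and 3 NR4 unstimulated samples. All cells came from female mice aged 6 weeks, with 7 to 8 spleens pooled in each of 3 lots a strain, were purified by magnetic depletion of other cells and were cultured for 2 h. Anti-IgM cultures received goat F(ab')2 antibody against mouse IgM at 10 µg/ml, which cross-links the B cell receptor, and unstimulated cultures received medium alone. The labels name no interferon among the additions.

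Type I interferon binds a receptor on the cell surface whose kinases activate STAT proteins. With IRF9 these form a transcription factor complex that binds interferon-stimulated response elements in promoters and raises many genes together. IRF7 feeds the loop by raising interferon itself, and USP18 damps it at the receptor. Resting B cells carry a low, continuous interferon tone, and the genes below are its usual readout.

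The deposited values are log2 signals with the median of every probe set over the 11 arrays already taken off, so 0 stands for the middle array and not for absence. Levels and detection cannot be read from them, and values are not compared between genes. Per-array medians of all genes lay between -0.03 and 0.05. One array stood apart in its control transcripts and in the interferon-stimulated genes. In NR4 anti-IgM replicate 1 the 3' probe sets of the control transcripts exceeded the 5' ones by 1.05 for Gapdh and 0.86 for beta-actin, against -0.16 to 0.42 and -0.03 to 0.19 in the other 10 arrays. The mean over 5 control transcript pairs was 0.355 in this array and -0.114 to 0.205 in the other 10. This array also held the highest value of 22 of the 35 interferon-stimulated genes, where it held the highest value of 15.4% of all genes. Over all genes NR4 anti-IgM replicate 2 was at least as far out, with the highest value of 18.9% and the lowest of 14.5%. It held the highest value of 1 of the 35. Whether RNA quality plays a part in the interferon genes of NR4 anti-IgM replicate 1 was not tested. Values without replicate 1 stand beside many of the results below. Of 9 measured B cell markers, including Cd79a, Ms4a1 and Pax5, none passed the test between the strains (limma). After anti-IgM 3 of them fell, as given with the response below.

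**Figure D1:**
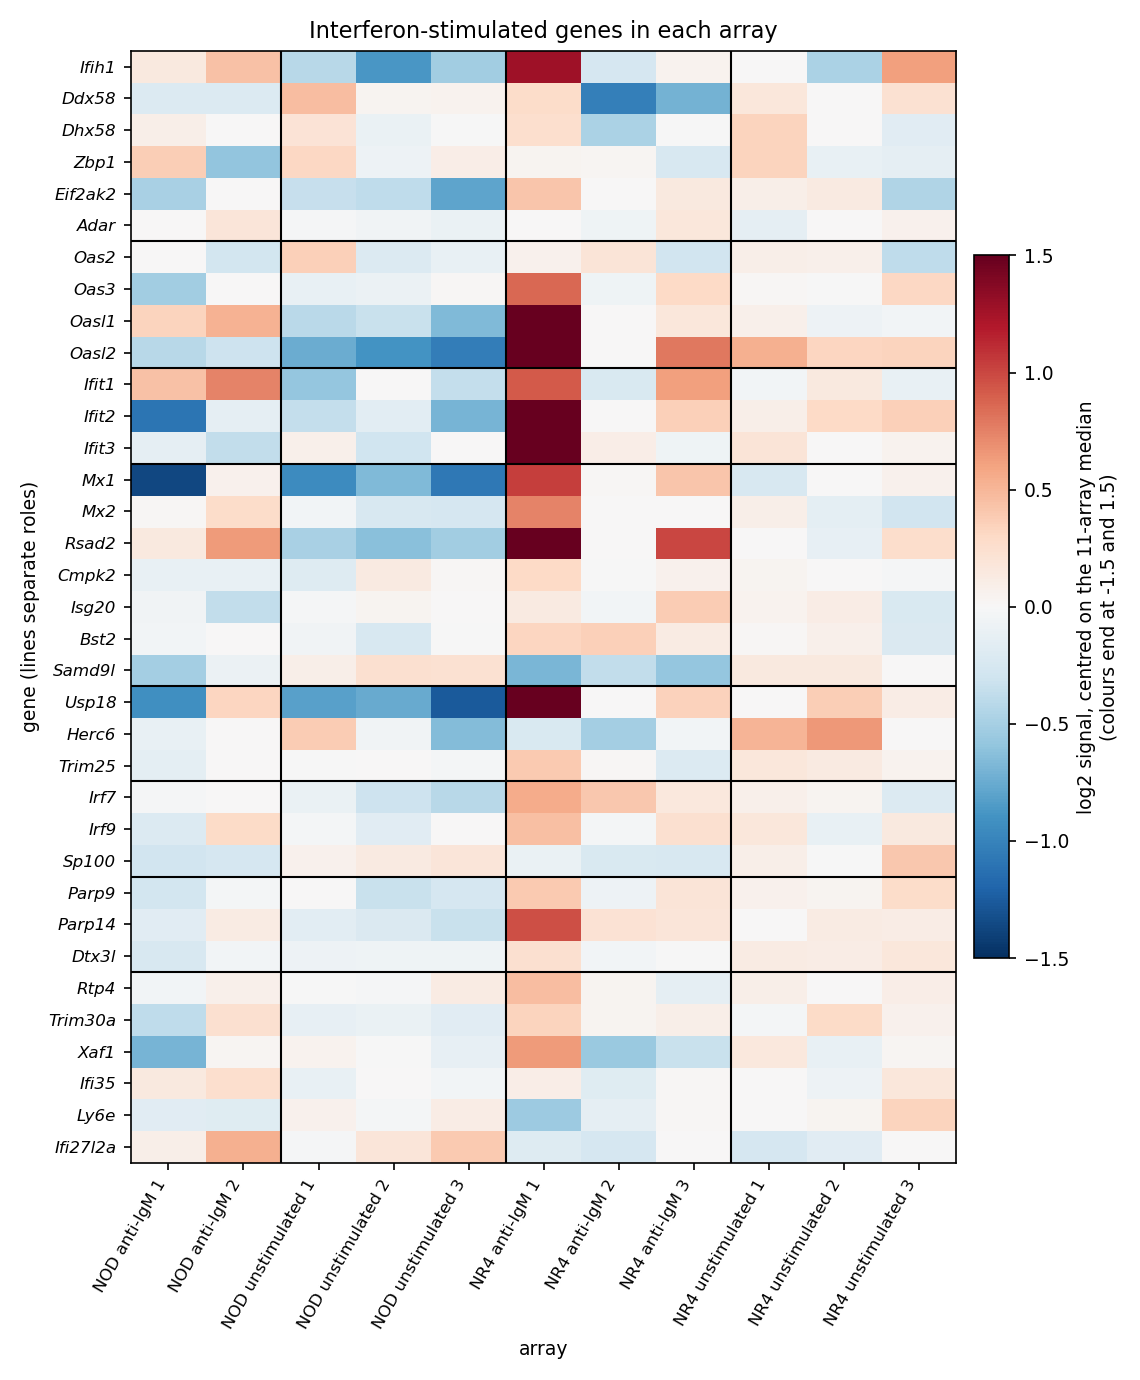
Centred log2 signal of the 35 measured interferon-stimulated genes (rows, grouped by role) in each of the 11 arrays (columns), with red above and blue below the gene's median over arrays and colours ending at -1.5 and 1.5. NR4 anti-IgM replicate 1 holds the highest value in 22 rows, and Oasl2, Usp18 and Mx1 are blue in the unstimulated NOD arrays.

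The first comparison set the interferon-stimulated genes of NOD B cells against those of NR4 B cells. Most lay lower in NOD. Averaged over both cultures, 28 of the 35 genes were below 0, with a median difference of -0.16 log2 (NOD minus NR4), while 49.4% of all genes were below 0 and their median was 0.0013. The genes furthest from 0 were Oasl2, Usp18, Mx1 and Ifit2, at -1.28 to -0.98, each measured by 1 probe set. Among the 17 genes with 2 or more probe sets, 7 had probe sets on both sides of 0 in this difference. In the averaged response to anti-IgM 5 did. No gene of the list passed the threshold (limma, Benjamini-Hochberg adjusted p below 0.05 over all genes), against 0.121% of all genes called. At an unadjusted p under 0.05, 10 were lower and 1 higher in NOD, where 4.39% of all genes reached that level in either direction and 1.51% did so as lower. Adding the replicate number as a block called none of the 35 either, against 0.203% of all genes. Without NR4 anti-IgM replicate 1, 23 of 35 were below 0 (47.1% of all genes), the median was -0.10, and 9 were lower and 2 higher at an unadjusted p under 0.05, against 1.64% of all genes as lower. Without NOD anti-IgM replicate 1, 7 of 35 reached that level in either direction, against 3.02% of all genes.

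The same lean was present in resting cells alone, a comparison without the array that stood apart. In unstimulated cultures 29 of 35 genes were below 0 in NOD, with a median of -0.13, where 42.9% of all genes were below 0. The 3 NOD arrays lay entirely below the 3 NR4 arrays for 11 of the 35 genes, while 2.37% of all genes did so, and lay entirely above them for 0 of the 35, while 4.01% of all genes did. The 11 genes were Oasl1, Oasl2, Ifit2, Mx1, Rsad2, Usp18, Trim25, Parp9, Parp14, Dtx3l and Trim30a. The median over the 35 genes was -0.04, -0.10 and -0.10 in the NOD arrays and 0.08, 0.01 and 0.06 in the NR4 arrays, in order of replicate. No gene passed adjustment (limma), against 0.0605% of all genes called, and 4 reached an unadjusted p under 0.05, all lower, against 0.66% of all genes lower at that level. The model shares its estimate of spread with the stimulated arrays. When NR4 anti-IgM replicate 1 was left out, 10 of the 35 were lower at an unadjusted p under 0.05, against 0.868% of all genes, and none passed adjustment. With other arrays left out the count in either direction was 1 to 6, with 1 without NOD unstimulated replicate 3 (1.46% of all genes) and 2 without NR4 unstimulated replicate 2 (1.2% of all genes).

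**Figure D2:**
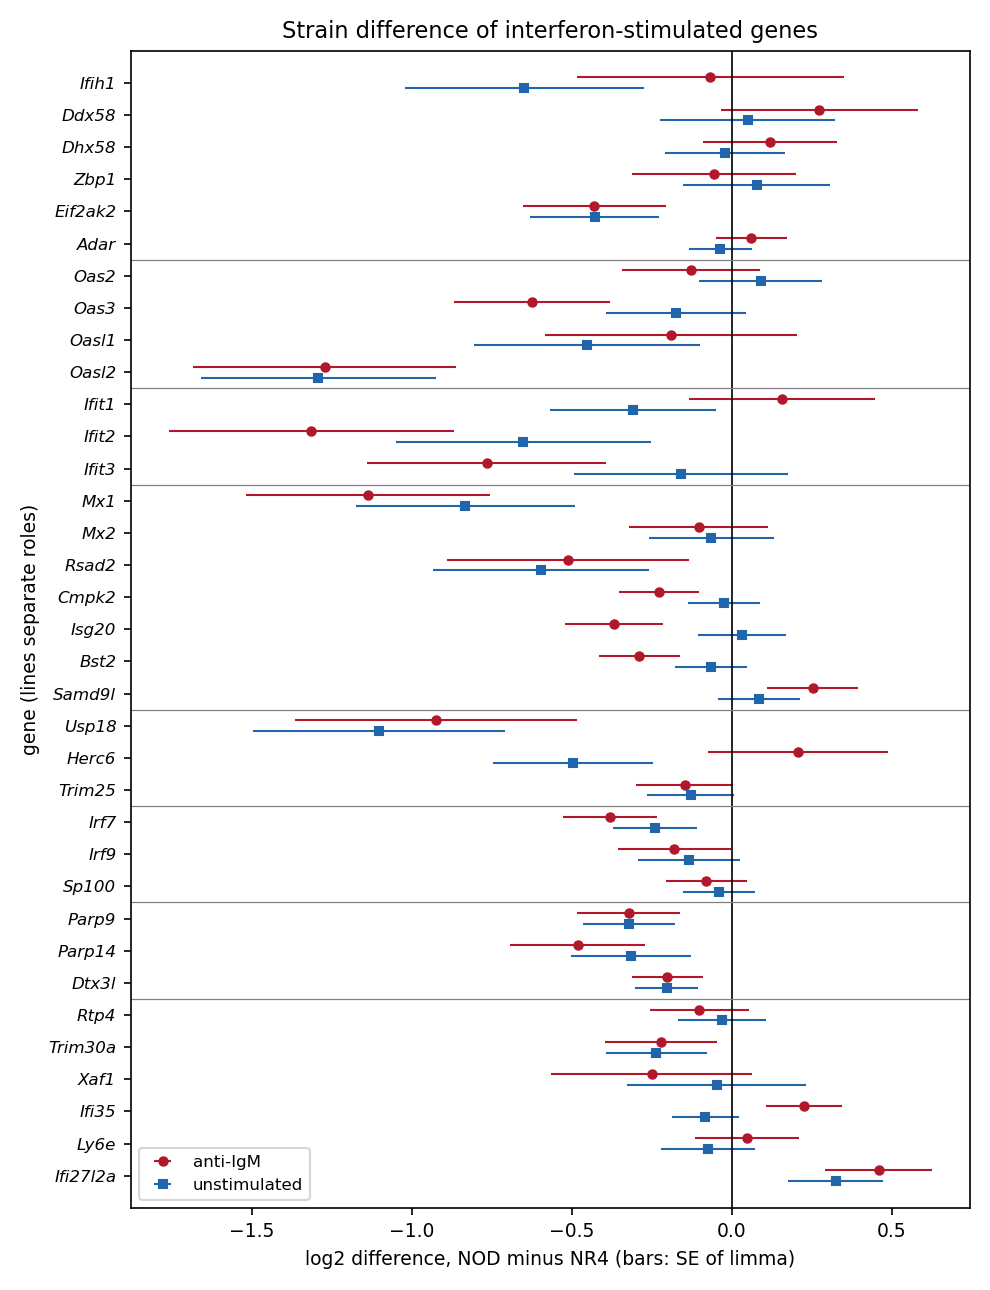
Log2 difference NOD minus NR4 of each measured interferon-stimulated gene in anti-IgM cultures (red circles) and unstimulated cultures (blue squares), with bars for the standard error of limma. Most points lie left of 0, and Oasl2 is at -1.27 in anti-IgM and -1.29 in unstimulated cultures.

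Promoters are shown for the 4 genes with the largest averaged strain difference among those in the RefSeq promoter table (GRCm38.p6), so that the response element can be seen in its place. Each runs 5' to 3' on the gene's strand, from 250 bases before the start to 50 after it, and is the C57BL/6J reference and not NOD or NOR sequence. Capitals mark the core of the interferon-stimulated response element, searched on either strand as GAAA, any 2 bases and GAAA again, which reads TTTC, any 2 bases and TTTC when it lies on the opposite strand. Ifit2 has 2 start sites in the table and both are printed.
Oasl2, chr5:114896684-114896983, plus strand: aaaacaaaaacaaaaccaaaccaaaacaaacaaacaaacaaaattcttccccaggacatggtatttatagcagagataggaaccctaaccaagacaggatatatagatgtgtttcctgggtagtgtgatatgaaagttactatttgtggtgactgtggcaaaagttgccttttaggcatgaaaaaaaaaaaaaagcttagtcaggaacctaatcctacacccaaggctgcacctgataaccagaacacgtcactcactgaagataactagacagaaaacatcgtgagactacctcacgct
Ifit2, chr19:34550444-34550743, plus strand: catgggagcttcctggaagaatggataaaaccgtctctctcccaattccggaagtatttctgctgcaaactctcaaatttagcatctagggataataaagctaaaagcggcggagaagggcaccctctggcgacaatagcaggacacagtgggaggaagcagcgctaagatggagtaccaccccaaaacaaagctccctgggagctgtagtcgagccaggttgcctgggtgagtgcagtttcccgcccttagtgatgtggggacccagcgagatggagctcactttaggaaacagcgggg
Ifit2, chr19:34550838-34551137, plus strand: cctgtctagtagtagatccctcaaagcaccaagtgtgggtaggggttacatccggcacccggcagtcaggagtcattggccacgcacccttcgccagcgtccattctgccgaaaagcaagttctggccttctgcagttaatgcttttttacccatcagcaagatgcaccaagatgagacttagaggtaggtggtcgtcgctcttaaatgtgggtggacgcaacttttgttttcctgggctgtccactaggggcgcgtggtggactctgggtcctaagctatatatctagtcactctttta
Rsad2, chr12:26456403-26456702, minus strand: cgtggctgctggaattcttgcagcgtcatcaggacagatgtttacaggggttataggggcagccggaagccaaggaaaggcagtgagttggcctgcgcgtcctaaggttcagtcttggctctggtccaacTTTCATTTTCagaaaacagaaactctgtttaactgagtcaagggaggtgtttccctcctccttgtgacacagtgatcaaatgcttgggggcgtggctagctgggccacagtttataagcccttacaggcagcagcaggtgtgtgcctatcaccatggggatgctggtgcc
Ifit3, chr19:34583279-34583578, plus strand: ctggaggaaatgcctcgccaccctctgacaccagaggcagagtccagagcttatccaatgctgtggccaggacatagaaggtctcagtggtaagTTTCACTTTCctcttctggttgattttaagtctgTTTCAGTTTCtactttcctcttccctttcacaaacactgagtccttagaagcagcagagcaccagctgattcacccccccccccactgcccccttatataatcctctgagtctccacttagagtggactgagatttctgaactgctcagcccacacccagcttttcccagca

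Rsad2 holds 1 such element, with its first base at -120 from the start, and Ifit3 holds 2, at -156 and -122, all on the opposite strand. The windows of Oasl2 and Ifit2 hold none, which says only that these letters are not in these windows.

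Of the oligoadenylate synthetase family, whose products activate the RNA-degrading enzyme RNase L, all 4 measured genes were below 0 in the averaged strain difference. Oasl2, an active synthetase in the mouse, had the smallest p of the list. It was at -0.42 and -0.31 in the NOD anti-IgM arrays and at -0.75, -0.90 and -1.03 in the NOD unstimulated arrays, against 1.95, 0.00 and 0.79 in the NR4 anti-IgM arrays and 0.53, 0.32 and 0.34 in the NR4 unstimulated arrays. Every NOD array lay below every NR4 array. Oasl2 differed by -1.28 (SE 0.28, limma adjusted p = 0.27), a 2.43-fold lower signal in NOD. Without NR4 anti-IgM replicate 1 the difference was -1.02 (SE 0.145, limma adjusted p = 0.062), and without NR4 anti-IgM replicate 2 it was -1.51 and passed (limma adjusted p = 0.034).

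In unstimulated cells Oasl2 differed by -1.29 (SE 0.37, limma adjusted p = 1.0). The same difference had an SE of 0.18 without NR4 anti-IgM replicate 1 (limma adjusted p = 0.087). Oas3, a synthetase that responds to long double-stranded RNA, was at -0.52 and 0.00 in NOD anti-IgM and at -0.12, -0.09 and 0.01 in NOD unstimulated arrays, against 0.86, -0.07 and 0.30 in NR4 anti-IgM and 0.02, -0.0041 and 0.31 in NR4 unstimulated arrays. The strains overlapped in both cultures for Oas3, and its averaged difference was -0.40 (SE 0.16, limma adjusted p = 1.0). Oas2 was at -0.02. Oasl1, which lacks synthetase activity and in mice restrains Irf7 translation, was at -0.32, and at -0.06 without NR4 anti-IgM replicate 1.

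The IFIT genes encode proteins that bind viral RNA. Ifit2 was at -1.10 and -0.13 in NOD anti-IgM and at -0.36, -0.15 and -0.70 in NOD unstimulated arrays, against 1.73, 0.00 and 0.36 in NR4 anti-IgM and 0.09, 0.30 and 0.35 in NR4 unstimulated arrays. As with Oasl2, every NOD array lay below every NR4 array, a pattern shared by 0.264% of all genes. Its averaged difference was -0.98 (SE 0.30, limma adjusted p = 0.72), and it was -0.72 (SE 0.19) without NR4 anti-IgM replicate 1. Ifit3 was at -0.13 and -0.37 in NOD anti-IgM and at 0.07, -0.30 and 0.00 in NOD unstimulated arrays, against 1.51, 0.105 and -0.07 in NR4 anti-IgM and 0.20, 0.00 and 0.06 in NR4 unstimulated arrays. The averaged difference of Ifit3, -0.46 (SE 0.25, limma adjusted p = 1.0), came to -0.215 without NR4 anti-IgM replicate 1. Mice have a close copy, Ifit3b, whose transcripts may share these probes. Ifit1 was at -0.08.

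Among the restriction factors, Mx1, a dynamin-like GTPase that blocks influenza viruses, was at -1.37 and 0.07 in NOD anti-IgM and at -0.94, -0.66 and -1.07 in NOD unstimulated arrays, against 1.035, 0.02 and 0.41 in NR4 anti-IgM and -0.24, 0.00 and 0.07 in NR4 unstimulated arrays. The strains were apart in unstimulated cells and overlapped after anti-IgM. The averaged difference was -0.985 (SE 0.26, limma adjusted p = 0.54). It was -0.85 (SE 0.25) without NR4 anti-IgM replicate 1, and -0.625 and -1.345 without NOD anti-IgM replicates 1 and 2. Rsad2, which encodes viperin, the maker of a chain-terminating nucleotide, was at 0.14 and 0.63 in NOD anti-IgM and at -0.49, -0.63 and -0.52 in NOD unstimulated arrays, against 1.69, 0.00 and 1.00 in NR4 anti-IgM and 0.00, -0.12 and 0.26 in NR4 unstimulated arrays. Its averaged strain difference was -0.55 (SE 0.25, limma adjusted p = 1.0), and -0.355 without NR4 anti-IgM replicate 1. It rests on 3 probe sets, of which 2 were at -0.66 and -0.71 and the other at 0.05. Its neighbour Cmpk2, a mitochondrial nucleotide kinase, was at -0.13, the RNA exonuclease Isg20 at -0.17, the virion tether Bst2 at -0.18 and Mx2 at -0.08.

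Of the genes for ISG15 conjugation, Usp18, the protease that removes ISG15 and inhibits the interferon receptor, was at -0.92 and 0.32 in NOD anti-IgM and at -0.81, -0.76 and -1.26 in NOD unstimulated arrays, against 1.53, 0.00 and 0.34 in NR4 anti-IgM and 0.00, 0.37 and 0.12 in NR4 unstimulated arrays. The unstimulated arrays of the strains did not overlap, whereas after anti-IgM NOD replicate 2 lay within the NR4 range. The averaged difference was -1.01 (SE 0.30, limma adjusted p = 0.68), and -0.79 (SE 0.23) without NR4 anti-IgM replicate 1. Herc6, the main ISG15 ligase of the mouse, and Trim25, a ubiquitin ligase that acts on RIG-I, were at -0.15 and -0.14.

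Of the regulators, Irf7, which drives interferon alpha genes, was at -0.02 and 0.00 in NOD anti-IgM and at -0.10, -0.31 and -0.41 in NOD unstimulated arrays, against 0.56, 0.40 and 0.16 in NR4 anti-IgM and 0.07, 0.04 and -0.21 in NR4 unstimulated arrays. Its strains were apart after anti-IgM and overlapped at rest, and the averaged difference was -0.31 (SE 0.10, limma adjusted p = 0.77, and 0.099 with the block). Irf9, the DNA-binding part of the interferon complex, was at -0.21 and 0.28 in NOD anti-IgM and at -0.03, -0.17 and 0.00 in NOD unstimulated arrays, against 0.45, -0.03 and 0.24 in NR4 anti-IgM and 0.17, -0.11 and 0.15 in NR4 unstimulated arrays. These arrays overlapped in both cultures and the difference was -0.16 (SE 0.12). It was -0.03 and -0.28 without NOD anti-IgM replicates 1 and 2 and -0.10 without NR4 anti-IgM replicate 1.

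Among the sensors, 4 of 6 were above 0, at 0.01 to 0.16. Ddx58, which encodes RIG-I and is the only measured gene of the list on chromosome 4, was at 0.16 (limma adjusted p = 1.0), and at 0.35 without NR4 anti-IgM replicate 1. The sources used here do not say whether it lies in the NOR segment. Eif2ak2, the kinase PKR that halts translation, was at -0.48 and 0.0015 in NOD anti-IgM and at -0.35, -0.38 and -0.79 in NOD unstimulated arrays, against 0.42, 0.00 and 0.15 in NR4 anti-IgM and 0.09, 0.13 and -0.45 in NR4 unstimulated arrays. The strains overlapped in both cultures, at rest through NR4 replicate 3, and the averaged difference was -0.43 (SE 0.15, limma adjusted p = 0.94). Ifih1, the MDA5 sensor, was at -0.36, and at -0.13 without NR4 anti-IgM replicate 1.

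Parp9 and Dtx3l, partners in one ubiquitin ligase complex, and the ADP-ribosyltransferase Parp14 were at -0.32, -0.20 and -0.40 in the averaged difference, all at an unadjusted p under 0.05 and none passing adjustment (limma adjusted p = 0.83 to 0.97). Of the other induced genes, Ifi27l2a ran the opposite way at 0.39 (SE 0.11, limma adjusted p = 0.66), and it was the highest difference of the list. The remaining 5, Trim30a, Xaf1, Rtp4, Ly6e and Ifi35, lay between -0.23 and 0.07.

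In anti-IgM cultures 26 of 35 genes were below 0 in NOD, with a median of -0.19, and 8 were lower and 1 higher at an unadjusted p under 0.05, where 1.67% of all genes were lower at that level. None passed adjustment (limma), against 0.0495% of all genes called. The NOD arrays lay entirely below the NR4 arrays for 9 genes and entirely above them for 2 (Ifi35 and Ifi27l2a), with 6.14% and 7.97% of all genes as the background. This comparison depended on NR4 anti-IgM replicate 1. Without it 21 of 35 were below 0 (48.8% of all genes), the median was -0.09, and 2 were lower and 4 higher at an unadjusted p under 0.05, against 2.18% of all genes as lower and 6.07% in either direction. The NOD arrays then lay entirely below for 10 genes and entirely above for 7, against 11.5% and 16.7% of all genes. Oasl1 was at -0.19 with all arrays and at 0.34 without that array. Oasl2 and Ifit2 were at -0.76 and -0.80 without it, both at an unadjusted p under 0.05. When NOD anti-IgM replicate 1 was left out instead, 21 of 35 were below 0, the median was -0.10 and 4 genes reached an unadjusted p under 0.05, against 2.96% of all genes.

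**Figure D3:**
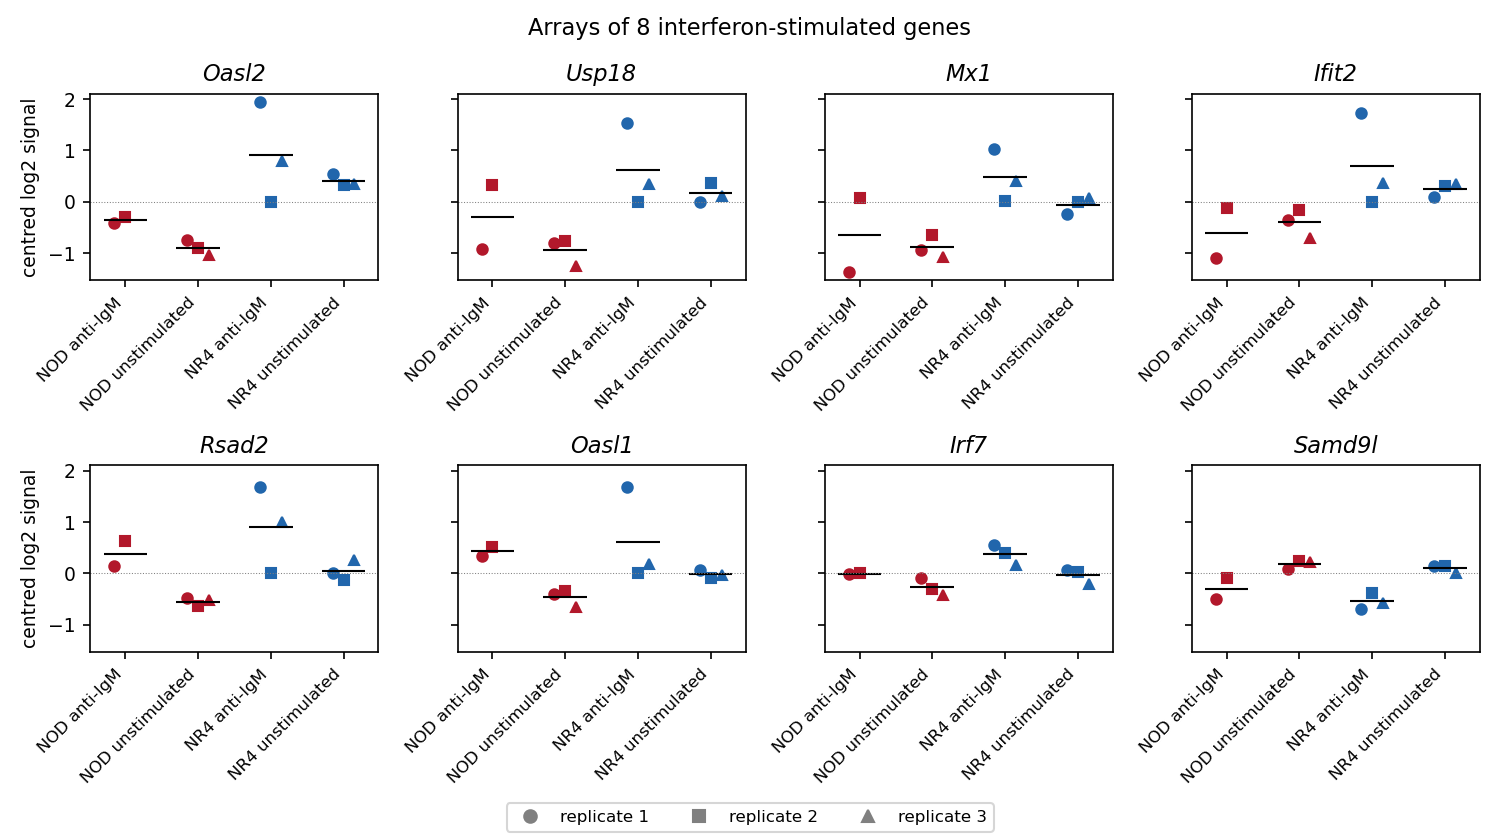
Centred log2 signal of 8 interferon-stimulated genes in each array, by group (NOD red, NR4 blue, marker shape for the replicate number) with a line at the group mean. The NOD points of Oasl2 and Ifit2 lie below all NR4 points, NR4 anti-IgM replicate 1 is the top point of all panels except Samd9l, and Samd9l is lower in the anti-IgM groups of both strains.

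The second comparison asked whether cross-linking of the B cell receptor changes these genes within 2 h. Genes of the list lay on both sides of 0. Averaged over both strains, 23 of 35 genes were above 0 and 12 below (anti-IgM minus unstimulated), with a median of 0.06, where 49% of all genes were below 0. Without NR4 anti-IgM replicate 1, 18 of 35 were below 0 and the median was -0.01. Samd9l alone passed adjustment and fell, so that 1 of 35 genes was called, against 1.56% of all genes in either direction and 0.841% as lower. At an unadjusted p under 0.05, 6 were higher and 4 lower, a total of 10 where 11.4% of all genes reached that level. The total was 6 without NOD anti-IgM replicate 2, where 9.89% of all genes reached it. Blocking on replicate number left 2 genes past the threshold, Samd9l and Irf7, against 3.07% of all genes.

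Samd9l, a negative regulator of growth and translation in blood cells, was at -0.50 and -0.08 in NOD anti-IgM, against 0.08, 0.24 and 0.22 in NOD unstimulated arrays. It was at -0.69, -0.37 and -0.58 in NR4 anti-IgM, against 0.15, 0.15 and 0.00 in NR4 unstimulated arrays. The cultures did not overlap in either strain. Samd9l fell by 0.56 (SE 0.10, limma adjusted p = 0.020), and in NR4 alone it was at -0.65 (SE 0.13, limma adjusted p = 0.070, and 0.026 with the block, in which 1.26% of all genes were called). The averaged call was lost, with an adjusted p of 0.054 to 0.073 by limma, when any one of NOD unstimulated replicates 2 and 3, NOD anti-IgM replicate 1 and NR4 unstimulated replicates 1 and 2 was left out, while the difference stayed between -0.55 and -0.46. Samd9l rests on 1 probe set.

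Irf7 rose by 0.29 in the blocked fit (limma adjusted p = 0.047), and without the block its difference was 0.335 (SE 0.10, limma adjusted p = 0.16). Its arrays, given above, did not overlap between the cultures in either strain. Sp100, a nuclear body protein, was at -0.38 (SE 0.09, limma adjusted p = 0.060) and likewise did not overlap in either strain. Such separation in both strains was seen for 2.08% of all genes as higher and 3.56% as lower. No other gene of the 35 showed it.

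The 4 largest differences in either direction belonged to Rsad2, Oasl1, Ifit1 and Ifih1, all positive. Rsad2 was at 0.89 (SE 0.25, limma adjusted p = 0.14). Its 3 probe sets were at 0.25, 0.91 and 1.255 in this difference. Rsad2 was at 0.94 in NOD and 0.85 in NR4, and it passed without NR4 anti-IgM replicate 2 (limma adjusted p = 0.012). Without NR4 anti-IgM replicate 1 its averaged difference was 0.695 (SE 0.19, limma adjusted p = 0.14), and the response in NR4 alone was 0.45. Oasl1 was at 0.34 and 0.52 in NOD anti-IgM, against -0.40, -0.34 and -0.66 in NOD unstimulated arrays, and at 1.69, 0.00 and 0.18 in NR4 anti-IgM, against 0.08, -0.08 and -0.04 in NR4 unstimulated arrays. The NOD cultures were apart and the NR4 cultures overlapped. Its averaged difference was 0.765 (SE 0.26, limma adjusted p = 0.25). Without NR4 anti-IgM replicate 1 it was 0.50 (SE 0.09, limma adjusted p = 0.036), and the gene then also passed in NOD, at 0.90 (SE 0.13, limma adjusted p = 0.049).

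Ifit1 was at 0.44 and 0.74 in NOD anti-IgM, against -0.58, 0.00 and -0.35 in NOD unstimulated arrays, and at 0.92, -0.23 and 0.61 in NR4 anti-IgM, against -0.04, 0.15 and -0.11 in NR4 unstimulated arrays. It too was apart in NOD and overlapping in NR4, with an averaged difference of 0.67 (SE 0.19, limma adjusted p = 0.15). Ifit1 passed without NR4 anti-IgM replicate 2 (limma adjusted p = 0.020). Without NR4 anti-IgM replicate 1 its averaged difference was 0.55 (SE 0.18, limma adjusted p = 0.21). The response in NR4 alone was then 0.19, against 0.435 with all arrays. Ifih1 was at 0.14 and 0.44 in NOD anti-IgM, against -0.42, -0.87 and -0.53 in NOD unstimulated arrays, and at 1.27, -0.25 and 0.05 in NR4 anti-IgM, against 0.00, -0.48 and 0.61 in NR4 unstimulated arrays. It was separated in NOD alone, and its averaged difference was 0.61 (SE 0.28, limma adjusted p = 0.46). It was 0.38 without NR4 anti-IgM replicate 1, and the response in NR4 alone was -0.14, against 0.32 with all arrays. Ddx58, the sister sensor of Ifih1, was at -0.51 (SE 0.21) with all arrays and passed as lower without NR4 anti-IgM replicate 1, at -0.70 (SE 0.11, limma adjusted p = 0.022).

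**Figure D4:**
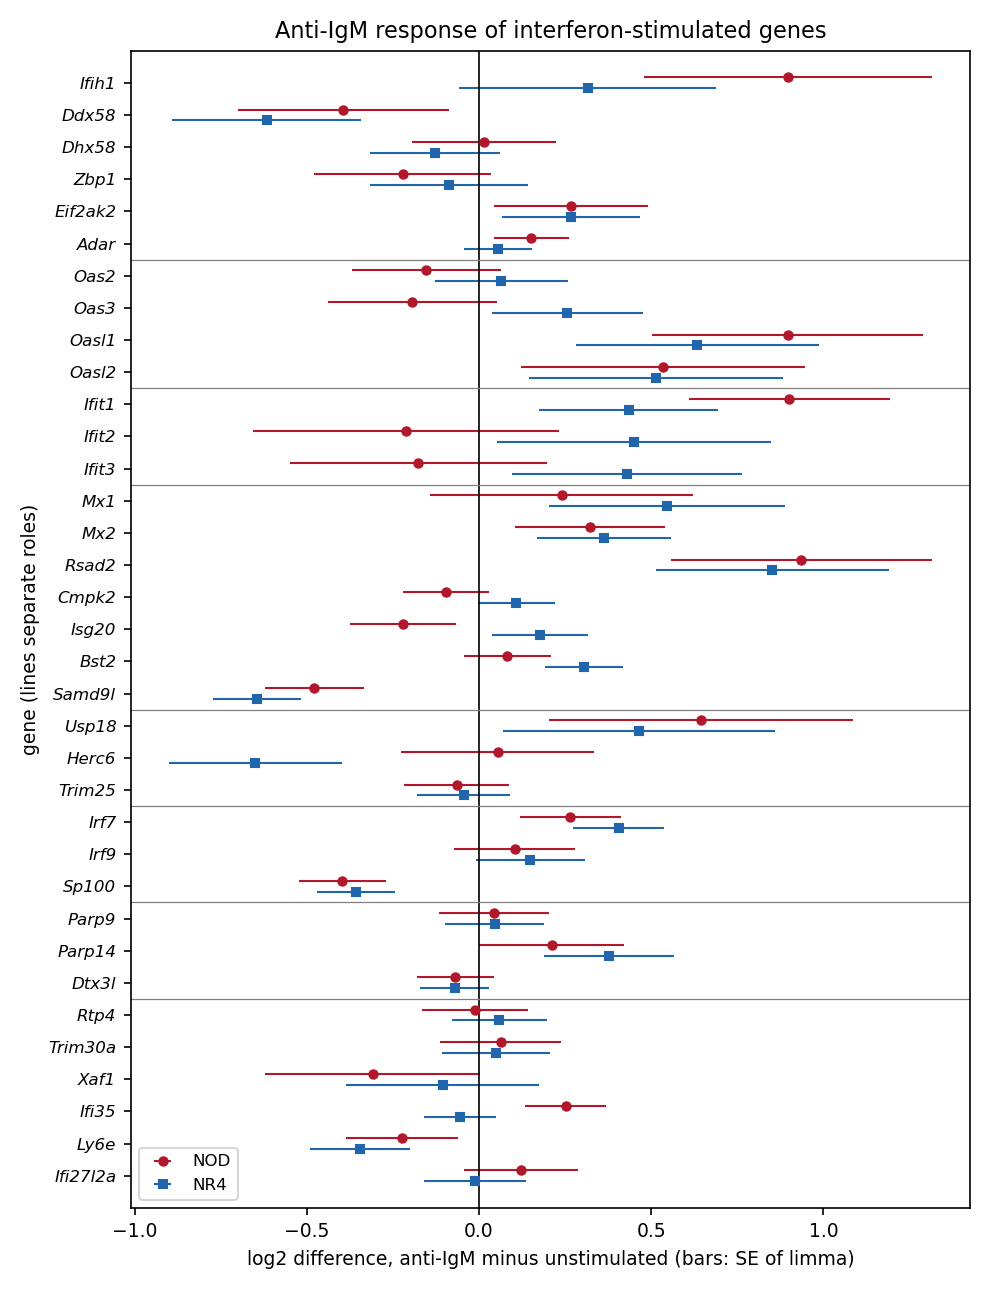
Log2 difference anti-IgM minus unstimulated of each measured interferon-stimulated gene in NOD (red circles) and NR4 (blue squares), with bars for the standard error of limma. Points fall on both sides of 0, with Rsad2 at 0.94 in NOD and 0.85 in NR4 and Samd9l at -0.48 in NOD and -0.65 in NR4.

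Within single strains no gene passed in NOD (limma, 0.115% of all genes called) or in NR4 (0.412% called), with 5 and 8 genes at an unadjusted p under 0.05, where 5.15% and 9.63% of all genes reached it. With each array except the 2 of NOD anti-IgM left out in turn, the count was 3 to 10 in NOD. It was 3 without NOD unstimulated replicate 2 or 3 (3.95% and 4.06% of all genes). It was 10 without NR4 anti-IgM replicate 1 (6.16%). The median NOD response of the list was 0.054 with all arrays. Without NOD anti-IgM replicates 1 and 2 this median was 0.16 and -0.055, with 1 array left in that group each time. In NR4 the count was 5 to 11, with 11 without NR4 anti-IgM replicate 2 (9.52% of all genes). It was 5 without any one of the NR4 unstimulated arrays or NR4 anti-IgM replicate 1 (7.05% to 10.2%). The NOD and NR4 differences share no arrays, but the cultures of each strain came from the same lots. In NOD 9 genes lay entirely higher and 5 entirely lower in the anti-IgM arrays, with 8.27% and 12% of all genes as the background. In NR4 these numbers were 3 and 3, with 5.12% and 7.49%. They were 3 and 7 in NR4 without NR4 anti-IgM replicate 1, with 9.28% and 14.1%.

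The third comparison asked whether the response differs between the strains. None of the 35 genes passed the interaction test (limma, 0 genes called in all, or 0% of those tested), and 0 reached an unadjusted p under 0.05, where 1.4% of all genes did. The values ran from -0.66 for Ifit2 to 0.70 for Herc6 (response in NOD minus response in NR4), with standard errors of 0.60 and 0.38. Without NR4 anti-IgM replicate 1, 4 genes were higher at an unadjusted p under 0.05, where 2.26% of all genes reached it in either direction, among them Ifih1 at 1.04 (SE 0.40) and Oasl1 at 0.79 (SE 0.18), and none passed adjustment (limma adjusted p = 1.0 for both).

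Genes that make, sense or transmit interferon were read in the averaged strain comparison. None passed (limma) of 10 measured ligand genes, 10 receptor and transducer genes, 13 genes of interferon induction, 4 other IRF factors or 7 feedback inhibitors. Ifnar2, a chain of the type I receptor, was at -0.20 (SE 0.09) and Jak2, a kinase of the interferon gamma receptor, at 0.25 (SE 0.10). Tlr7, a sensor of single-stranded RNA in endosomes, was at -0.35 (SE 0.15) and Irf8, a factor of B cell and dendritic cell development, at -0.30 (SE 0.08, limma adjusted p = 0.51). Of the 10 ligand genes 8 were below 0, with a median of -0.06. Those with the smallest p were Ifnab at -0.14 (SE 0.08) and Ifng at 0.44 (SE 0.27). Ifnb1, the interferon beta gene on chromosome 4, was at -0.05 (SE 0.11). Ifnlr1, the chromosome 4 gene for the interferon lambda receptor, was at 0.15 (SE 0.11). Of 44 other type I response genes none passed, 26 were below 0 and the median was -0.04, with Ms4a4c highest at 0.71 (SE 0.15, limma adjusted p = 0.27). Of 20 interferon gamma response genes none passed and the median was -0.08, with Cxcl10, a chemokine, at -0.26 (SE 0.12). After anti-IgM Irf4, a factor of plasma cell differentiation, rose by 0.79 (SE 0.07, limma adjusted p = 0.00064), and Slfn2, Ifi209 and Ms4a6b fell by 0.56, 0.665 and 0.60 (limma adjusted p = 0.042, 0.027 and 0.015). With the replicate block Tor3a also rose, by 0.38, and Gbp3, an interferon-induced GTPase, fell by 0.48 (limma adjusted p = 0.046 and 0.037, and 0.22 and 0.16 without the block). In NR4 alone Ifi209 and Ms4a6b were called as lower with the block only (limma adjusted p = 0.032 and 0.045, and 0.064 and 0.061 without it).

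Markers of cells that could carry interferon transcripts into the samples were also read. Of 8 plasmacytoid dendritic cell markers 7 were below 0 in NOD in the averaged comparison, with a median of -0.12 and none called by limma, while Siglech was at -0.07 and Ccr9 at -0.09 (SE 0.13 and 0.10). Klk1 and Lag3, at -0.41 and -0.67, were the 2 that reached an unadjusted p under 0.05. Array medians of that list were -0.12 to -0.07 in unstimulated NOD arrays and -0.18 to 0.19 in unstimulated NR4 arrays, so the strains overlapped at rest. After anti-IgM they did not, with medians of -0.05 to -0.01 in NOD arrays and 0.02 to 0.27 in NR4 arrays. This was not particular to that list. Neutrophil marker medians after anti-IgM were -0.17 to -0.07 in NOD and -0.03 to 0.10 in NR4 arrays. Plasma cell marker medians were -0.02 to -0.004 and 0.08 to 0.13. The 7 plasma cell markers had an averaged strain median of -0.15, with 6 below 0, 3 lower at an unadjusted p under 0.05 (limma) and none called. The 11 monocyte and macrophage markers had a median of 0.01 and the 8 NK cell markers of 0.36, again with none called. NK array medians were -0.02 to 0.16 in unstimulated NOD and -0.89 to 0.11 in unstimulated NR4 arrays, lowest in NR4 replicate 3. After anti-IgM they were 0.08 to 0.13 in NOD and -0.255 to 0.09 in NR4 arrays, so the strains overlapped in both cultures. The 9 T cell markers had a median of 0.18, with 3 below 0, and went both ways. At an unadjusted p under 0.05 (limma) 3 were higher and 3 lower in NOD. Cd4, a T cell marker, was lower in NOD by the blocked fit at -0.76 (limma adjusted p = 0.025), and at -0.72 without the block (limma adjusted p = 0.072). After anti-IgM the B cell markers Cd79b, Ms4a1 and Cd22 fell by 0.62, 0.51 and 0.99 (limma adjusted p = 0.016, 0.016 and 0.026), with a median of -0.41 over the 9, in the same comparison in which Samd9l fell. Itgax, a dendritic cell integrin, rose by 0.50 (limma adjusted p = 0.017), and Cd14, a monocyte receptor, rose by 0.53 with the block (limma adjusted p = 0.036, and 0.063 without it). Their lists did not move as a whole. The 7 conventional dendritic cell markers had a median response of 0.06, with 2 below 0. The 11 monocyte and macrophage markers had a median response of 0.03, with 4 below 0. All 10 early genes of B cell receptor stimulation were above 0 in the averaged response and 9 of them passed. Among the 9 were Egr2 at 1.21 and Myc at 1.46 (limma adjusted p = 7.1e-05 and 0.0049). The part of the cell markers in the interferon genes was not tested, and in centred values it cannot be seen which markers lie near background. Fewer cells of a type and less RNA per cell cannot be told apart in such samples.

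The response element whose copies are shown for Rsad2 and Ifit3 was counted over the list. Of the 37 listed genes 26 had a promoter in the table, and 10 of them (38.5%) held the element, where 3.99% of all 27025 genes in the table did. The 10 were Ifih1, Ddx58, Eif2ak2, Oas3, Ifit1, Ifit3, Rsad2, Bst2, Isg15 and Trim30a. The 9 measured genes with the element had a median strain difference of -0.36, with 8 of them below 0, and the 15 measured genes without it had a median of -0.15, with 12 below 0. With NR4 anti-IgM replicate 1 left out these medians were -0.185 and -0.08, with 7 and 11 genes below 0. The medians of the anti-IgM response were 0.19 and 0.01, and 0.18 and -0.04 without that array. These are descriptions of reference sequence beside the values, with no test of one against the other.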

How the data were processed

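RNA of 11 samples was hybridized to 1 array each. Per the submitters' processing notes RMA gave the deposited values of 45101 probe sets, which were read as log2 although the notes name no log base. The software version is not given in the sources used here. Each of the 45101 medians over arrays equals 0, which shows that probe sets had been centred before deposit. No 2 arrays hold identical values.

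Gene names came from the platform annotation, with symbols updated by Entrez identifier in the RefSeq table of GRCm38.p6, and the 34945 with 1 gene were kept. The median value per gene was fitted by limma 3.58.1 (R 4.3.3) with a mean for each of 4 groups, which left 7 residual degrees of freedom. Tests were moderated and two-sided, and p-values were adjusted by Benjamini-Hochberg over 18193 genes for each of the 7 comparisons separately and called below 0.05. The steps were tested on simulated data.

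Groups and replicate numbers come from the labels. Same-numbered arrays deviated together, with correlations of 0.59, 0.21 and 0.51 for unstimulated NOD against NR4 and of 0.33, 0.22 and 0.47 for anti-IgM against unstimulated NR4, each over the 0.1 taken as a sign of pairing. The labels do not tie replicate numbers to lots. For anti-IgM against unstimulated NOD the correlations were 0.63 and 0.12, also over 0.1 but from only 2 NOD anti-IgM arrays. Between the strains after anti-IgM they were 0.37 and -0.12, so pairing was not established there. Blocked values are given where they change a call of an interferon-stimulated gene or of a pathway gene or cell marker in an averaged comparison. Alternatives were other summaries of probe sets, normalizations, blocks, array weights, robust moderation and each array left out. The genes and lists were chosen with earlier results of these data known. Array values were given for genes called in either fit, the 8 largest strain differences, the 4 largest responses, and Irf7, Irf9 and Usp18. In the other pathway lists, genes called in an averaged comparison and some of those with the smallest p were named. Ifnb1, Ifnlr1, Siglech, Ccr9 and the other cell markers and early genes were named after their values were seen.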

Additional observations from a re-analysis of the deposited data

How the results depend on the processing

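Each of the 7 comparisons was recomputed under 22 alternatives, 1 of them (the replicate block without NR4 anti-IgM replicate 1) chosen after seeing the data. For the averaged strain difference, the count of called interferon-stimulated genes was 1 with array weights (Oasl2) in place of 0. Of all genes 35 were called with weights, against 22 without. With each array except the 2 of NOD anti-IgM left out in turn, the count was 0 to 1. The array weights were 7.28 for NOD unstimulated replicate 2, 5.15 for NR4 unstimulated replicate 2 and 0.40 to 0.91 for the other arrays. The unstimulated comparison with weights thus leaned on those 2 arrays. In unstimulated cells the count was 2 with array weights (Oasl2 and Usp18) in place of 0, where 127 of all genes were called. For the averaged response 1 gene was called, where 283 of all genes were. The count was 2 with each probe set on its own (those of Samd9l and Sp100, where 495 of all probe sets were called). It was 2 with the replicate block (558 of all genes). With the replicate number within strain as a random block, which the labels do not tie to lots, it was 4 (Rsad2, Samd9l, Irf7 and Sp100, with 756 of all genes). It was 2 with array weights (Rsad2 and Samd9l, with 506 of all genes) and 0 among genes with 2 or more probe sets. With the block and without NR4 anti-IgM replicate 1 it was 4 (Ddx58, Oasl1, Samd9l and Sp100, with 617 of all genes). With each array left out it was 0 to 3. In the NOD response it was 0 to 1 with each array left out. In the NR4 response it was 1 with the replicate block (Samd9l, with 229 of all genes) and 1 with the random block (Samd9l, with 353). It was 1 with the block and without NR4 anti-IgM replicate 1 (Ddx58, with 115 of all genes). The replicate block changed no other call of these genes. The strain difference of Rsad2 was 0.046 with the lowest-numbered of its probe sets. Apart from the arrays left out and the restriction to genes with several probe sets, the cause of these changes was not tested.

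Over all genes, 22 were called in the averaged strain difference and 12 to 37 under the alternatives, 11 in unstimulated cells and 8 to 127 (the highest with array weights), 9 in anti-IgM cells and 4 to 12, 283 in the averaged response and 76 to 756, 21 in the NOD response and 0 to 94, and 75 in the NR4 response and 16 to 353. The median of the 35 genes in the averaged strain difference stayed below 0, from -0.22 to -0.09. The number of arrays, 2 in the smallest group, limits the precision, and signal over background cannot be read from centred values. Leaving out a NOD anti-IgM array leaves 1, which is assumed to vary like the other groups.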
